A study of Homo sapiens with 6 samples.

Results

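The uninduced transcriptome of KYSE70, a cell line established from a human squamous carcinoma of the esophagus, was described from 2 libraries of the series that were made before any doxycycline was given. They were chosen by their labels as the day 0 libraries, 2 of 6 in all, with no measured value used in the choice. The first came from KYSE70 cells stably carrying pLKO-Tet-On-shSOX2, a doxycycline-inducible short hairpin RNA against SOX2, and the second from KYSE70 cells stably carrying pLKO-Tet-On-shTP63, the same kind of vector with a hairpin against TP63. Both were untreated. The remaining 4 libraries came from cells with these vectors after 4 days of doxycycline at 50 ng/ml, 2 per targeted gene, and served here only for comparison. Each title holds a number in parentheses, which may count replicates or hairpins, and both day 0 libraries carry the number 2. If it counts hairpins, the induced libraries numbered 1 came from other lines than the uninduced ones, and line below means only the targeted gene. The labels do not say whether a line is a single clone or a pool, nor whether libraries came from separate cultures. With 1 library per uninduced line there was no replicate error, no test was made, and a difference between the libraries cannot be told apart from a difference between the lines.

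Stratified squamous epithelium is renewed from a basal layer that rests on the basement membrane through hemidesmosomes and is held together by desmosomes. The transcription factors SOX2 and TP63 are known as regulators of the basal state in esophageal epithelium, and both are often gained or overexpressed in squamous carcinoma. Basal cells make keratins KRT5, KRT14 and KRT15, while cells that move upwards switch to other keratins and then to cornified envelope proteins such as involucrin and loricrin.

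Poly(A) RNA was measured, and levels are given as log2(RPKM + 1), called log2 levels below, where RPKM scales reads by gene length and library size. Of a pair of values the first is from the uninduced shSOX2 library and the second from the uninduced shTP63 library. Where several genes share a sentence the pair is written with a slash, and a log2 difference is always shTP63 minus shSOX2. Of 2 day 4 values in 1 line the first is from the library numbered 1. Log2 levels of SOX2 were 6.25 and 5.69, which correspond to RPKMs of 75.3 and 50.8, and those of TP63 were 3.61 and 3.99, or RPKMs of 11.2 and 14.9. Both defining genes were thus detected in both lines before induction, and neither was 2-fold apart between them. The log2 difference of SOX2, -0.56, was smaller in size than the gap of 0.98 between the 2 induced shSOX2 libraries, in which SOX2 was targeted. It was larger than the gap of 0.14 between the induced shTP63 libraries. For TP63 the log2 difference, 0.39, was larger than both gaps, 0.014 for shSOX2 and 0.15 for shTP63.

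Of 48644 gene rows in the deposited table, 9559 had an RPKM of at least 1 in both uninduced libraries, and are called expressed. Of these, 8348 carried names annotated as protein-coding. A further 712 rows reached that level only in the shSOX2 library and 711 only in the shTP63 library, while 24902 were listed at 0 in both. Levels of at least 10 RPKM in both were reached by 2180 rows and of at least 100 RPKM by 139. The 10 highest rows held 22.6% of the summed RPKM of each library. Values of the same rank are nearly equal in all libraries of this table, so that share and the near-equal numbers of 712 and 711 rows follow from its scaling and are no result about the cells. The table holds no counts, so depth is unknown. The uninduced shTP63 library had 16167 rows above 0, with a smallest log2 level above 0 of 0.143, against 23509 rows in the uninduced shSOX2 library and 21530 to 23462 in the induced ones. Of the rows at 0 in only 1 of the uninduced libraries, 7575 were at 0 in shTP63 and 233 in shSOX2.

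Differences were counted among the 10536 genes with a mean RPKM of at least 1 over the 6 libraries, called tested genes. Of these, 487 (4.62%) were at least 2-fold apart between the uninduced libraries on the log2(RPKM + 1) scale, 209 (1.98%) higher and 278 (2.64%) lower in shTP63. These shares are the background for the counts of list members given below. The same rule applied to the 2 induced libraries of each targeted gene gave 514 genes (4.88%) for shSOX2 and 551 (5.23%) for shTP63, counts close to that between the uninduced libraries. If the number in the titles counts hairpins, these gaps hold a difference of hairpin too. For single genes, the difference at day 0 was larger than both of these gaps for 424 of the 487 (87.1%), beside 33.1% of all tested genes. The 487 were chosen for a wide difference at day 0, so this is a description and no test.

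The highest protein-coding genes, leaving out ribosomal proteins and genes of the mitochondrial genome, were led by structural and housekeeping genes of a squamous cell. KRT5, the basal keratin, had log2 levels of 9.75 and 10.52, or RPKMs of 862 and 1462. KRT6A, a keratin of wounded and hyperproliferative epithelium, had log2 levels of 9.61 and 10.31. Reads of KRT6A may be shared with its near-identical copies KRT6B and KRT6C, whose log2 levels were 5.25/5.42 and 6.26/6.67. The metabolic genes at this level were GAPDH at log2 levels of 9.69 and 10.03, PKM2 (pyruvate kinase) at 8.77 and 9.21 and ENO1 (enolase) at 8.26 and 8.21. TYMS, the thymidylate synthase that makes a DNA precursor, was at log2 levels of 9.12 and 9.52, or RPKMs of 555 and 733, in both lines among the highest protein-coding genes. ALDH3A1, an aldehyde dehydrogenase of surface epithelia, had log2 levels of 8.32 and 9.17. The ferritin subunits FTH1 and FTL, which store iron, were at log2 levels of 9.17/11.16 and 9.06/10.69, and both have many processed pseudogenes that could take or give reads. Cytoskeletal genes in the same group were ACTB at log2 levels of 9.35 and 9.88, the actin binders PFN1 at 8.40 and 8.47 and TMSB10 at 8.38 and 8.94, and TUBA1B at 8.16 and 8.07. The amino acid transporter SLC7A5 closed the 20 highest, at log2 levels of 7.95 and 7.97. The other members were S100A11 at log2 levels of 8.70 and 8.80, the elongation factor EEF2 at 8.55 and 9.06, the ubiquitin gene UBB at 8.12 and 8.70, the endoplasmic reticulum chaperone CALR at 8.43 and 8.09, the peroxiredoxin PRDX1 at 8.07 and 8.12 and the RNA binder YBX1 at 8.04 and 8.31. Of the 20 genes, FTH1 and FTL alone were at least 2-fold apart. Their ranks among all rows were 21/6 and 23/8, and in this scaled table a value at such ranks stands for the rank.

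**Figure D1:**
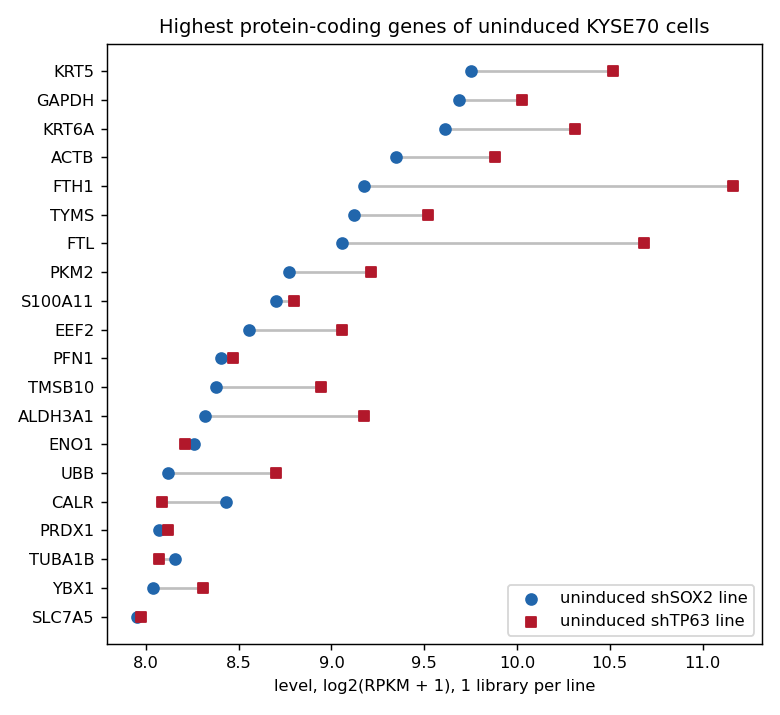
The 20 highest protein-coding genes of uninduced KYSE70 cells, ordered by the lower of their values, with log2(RPKM + 1) on the horizontal axis, a blue circle for the uninduced shSOX2 library and a red square for the uninduced shTP63 library (1 library per line). KRT5 lies at 9.75 and 10.52, and the widest gap is that of FTH1, at 9.17 and 11.16.

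Transcription factors of squamous epithelium were broadly detected, 25 of the 35 in the table being expressed in both libraries. After SOX2 the highest were MYC, the proliferation factor, at log2 levels of 4.96 and 5.15, the AP-1 subunit FOSL1 at 4.49 and 5.38, the ETS factors ETV4 at 4.73 and 4.73 and ETV5 at 4.33 and 4.37, and TRIM29 at 4.18 and 4.52. KLF5 and KLF4, which act in basal and in differentiating layers, had log2 levels of 4.29/3.86 and 2.82/3.58. TP73, the paralog of TP63, had log2 levels of 2.87 and 3.56. The differentiation factors ZNF750, OVOL1 and GRHL2 were all under an RPKM of 1, with log2 levels of 0.11/0.45, 0.03/0 and 0.0033/0.17. DLX3, a homeobox factor of upper epidermal layers, was the 1 of 28 tested members that was 2-fold apart, at log2 levels of 1.02 and 2.64 and a log2 difference of 1.62. The median log2 difference of the list was 0.03, beside 0.01 over all tested genes.

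Of the keratins of stratified squamous epithelium 7 of 19 were expressed in both libraries, and the range within the family was wide. KRT13, of the suprabasal esophagus, had log2 levels of 4.51 and 5.54, and basal KRT15 of 2.20 and 2.55. KRT14, the usual basal partner of KRT5, was far below it, at log2 levels of 0.88 and 2.44. KRT16 and KRT17 had log2 levels of 0.10/0.73 and 0/1.83, so that KRT17 was listed at 0 in the shSOX2 library. KRT14, KRT16 and KRT17 have pseudogene copies of high identity, so their low values may depend on how shared reads were counted, which was not tested. KRT1 and KRT2, keratins of the epidermal upper layers, were listed at 0 or near it, with log2 levels of 0/0 and 0/0. Of the 11 tested keratins 4 were at least 2-fold higher in shTP63 and 0 lower, KRT75, KRT14, KRT80 and KRT13, and the median log2 difference was 0.70. All 11 differences were above 0, from 0.17 to 3.69. For KRT13 the log2 difference of 1.03 went under 1 with a median-ratio scaling of the libraries, to 0.95. The keratins of simple epithelium KRT8 and KRT18, which form a pair, stood high in both libraries, at log2 levels of 7.92/7.66 and 6.15/6.06, while KRT7 was at 0.16 and 0.72 and KRT20 at 0.09 and 0.

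Every one of the 14 hemidesmosome and basement membrane genes was expressed in both libraries. The hemidesmosome plaque gene PLEC had log2 levels of 7.13 and 6.94, the transmembrane collagen COL17A1 6.75 and 6.84 and the integrin chain ITGB4 6.35 and 5.90. The laminin-332 chains LAMB3 and LAMA3 were unequal, at log2 levels of 6.92/6.02 and 2.67/1.66. LAMA3 and COL7A1, the anchoring fibril collagen at log2 levels of 4.99 and 3.69, were 2-fold lower in shTP63, by log2 differences of -1.01 and -1.31. None was 2-fold higher, and the median log2 difference was -0.22.

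Desmosome and adherens junction genes were expressed in 15 of 19 cases. PERP, a desmosomal membrane protein, led at log2 levels of 5.66 and 5.84, followed by DSP (desmoplakin) at 5.40 and 4.66, CTNNA1 at 5.37 and 4.82, PKP3 at 4.69 and 4.92 and JUP (plakoglobin) at 4.87 and 4.72. The desmosomal cadherins in use were DSG2 at log2 levels of 4.44 and 3.76, DSG3 at 4.04 and 2.94 and DSC3 at 3.40 and 3.01, while DSG1 and DSC1 of the upper epidermis were at 0/0 and 0.006/0. CDH1 (E-cadherin) was at log2 levels of 3.50 and 1.87, and CDH3 (P-cadherin) at 0.0019 and 0.18. CDH1 and DSG3 were 2-fold lower in shTP63, by log2 differences of -1.63 and -1.10, and none of the 15 tested members was 2-fold higher.

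Most late differentiation genes were low or listed at 0. Of 39 genes of the cornified envelope and late differentiation 9 were expressed in both libraries, 28 were under an RPKM of 1 in both, and 11 of these were listed at 0 in both. IVL (involucrin) had log2 levels of 0 and 0.54, LOR (loricrin) 0 and 0 and TGM1, the cross-linking transglutaminase, 0.34 and 0.16, and the alarmins S100A8 and S100A9 had 0/0 and 0/0. Those expressed included the protease inhibitors CSTB at log2 levels of 6.43 and 7.04, SLPI at 7.08 and 5.23 and PI3 (elafin) at 3.86 and 4.26, with the kallikrein KLK10 at 3.33 and 3.93 and ECM1 at 2.21 and 2.64. SLPI, SPRR3 and FLG (filaggrin) were 2-fold lower in shTP63, by log2 differences of -1.85, -1.58 and -1.05, and none of the 9 tested members was 2-fold higher. The 2 induced shSOX2 libraries differed by 2.33 on the log2 scale for SLPI and by 1.22 for FLG, which is more than the difference between the lines.

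**Figure D2:**
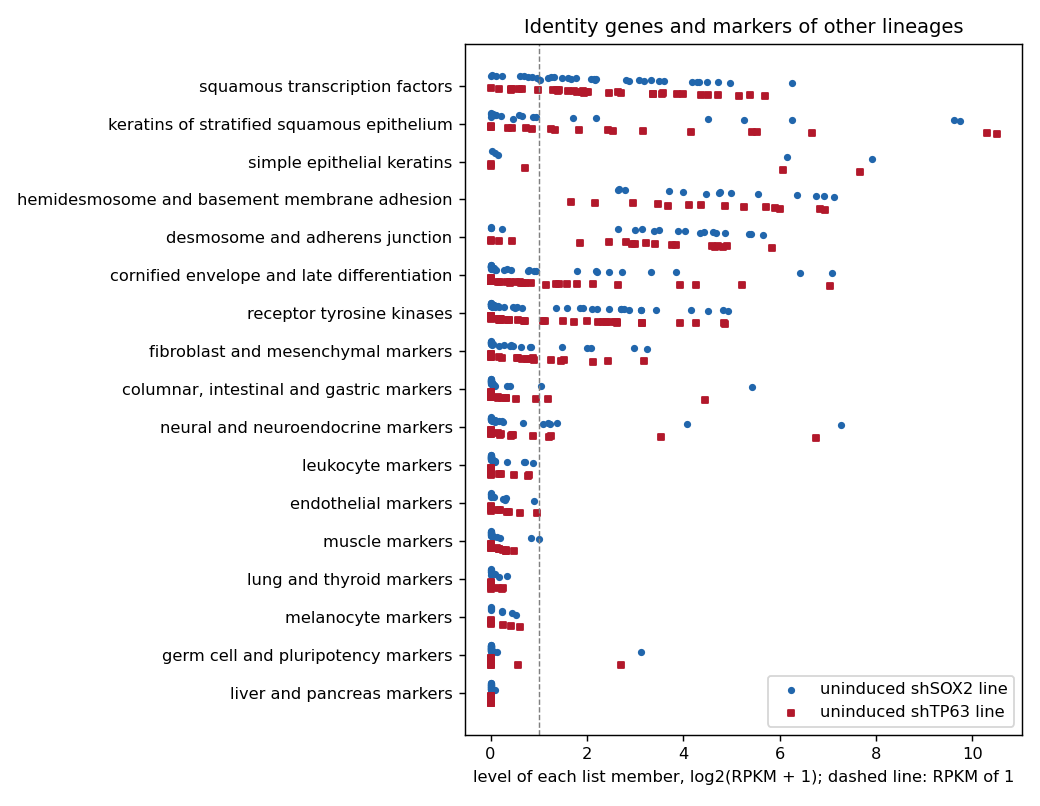
Log2(RPKM + 1) of every member of the identity lists, of receptor tyrosine kinases and of marker lists of other lineages in the uninduced shSOX2 (blue circles) and shTP63 (red squares) libraries, 1 point per gene and library, with a dashed line at an RPKM of 1. All 14 hemidesmosome genes lie above that line in both libraries, while 0 of 28 leukocyte markers and 0 of 20 liver and pancreas markers do.

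Receptor tyrosine kinases pass growth signals through the cell membrane, and 18 of 47 were expressed in both libraries. EPHA2, the ephrin receptor, and EGFR, the receptor of epidermal growth factors, were highest, at log2 levels of 4.94/4.86 and 4.51/4.84, or RPKMs of 29.6 and 28.0 and 21.8 and 27.7. The collagen receptor DDR1 had log2 levels of 4.83 and 4.27, EPHB4 4.15 and 3.93 and IGF1R 3.44 and 3.15. ERBB2 and MET, both drug targets in carcinoma, had log2 levels of 2.78/2.47 and 2.46/2.61, and FGFR1 and FGFR2 had 2.71/2.33 and 2.21/1.74. ERBB3 and ERBB4 were low, at log2 levels of 0.17/0.18 and 0.0051/0.19, and KIT, KDR and FLT3 of blood and vessel cells were at 0/0, 0/0 and 0/0. All 18 tested receptors were less than 2-fold apart, with log2 differences from -0.74 to 0.33.

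Of 38 ligands of these receptors 18 were expressed. The highest were FGFBP1, a secreted carrier of fibroblast growth factors, at log2 levels of 4.76 and 5.36, the ephrins EFNB1 at 4.58 and 5.07 and EFNB2 at 4.80 and 4.06, ARTN at 4.87 and 3.98 and PDGFA at 4.44 and 4.25. Among ligands of the EGFR family NRG1 had log2 levels of 4.06 and 4.56, AREG (amphiregulin) 2.48 and 3.71, TGFA 3.07 and 3.30 and HBEGF 0.89 and 1.27, while EREG and BTC had 0/0 and 0/0. AREG and FGF2 were 2-fold higher in shTP63, by log2 differences of 1.23 and 1.36, and 0 of 20 tested ligands were lower. AREG has a duplicate in the table, AREGB, so its reads may be split, and its 2 induced shSOX2 libraries were 1.88 apart on the log2 scale.

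Integrins, the receptors of the matrix, were expressed in 9 of 25 cases. Besides ITGB4, the chains ITGA3 at log2 levels of 5.55 and 5.71, ITGB1 at 4.48 and 5.26, ITGB5 at 4.65 and 4.07 and ITGA6 at 3.99 and 4.37 were highest. ITGB6, the epithelial partner of ITGAV, was listed at log2 levels of 0 and 0, and the leukocyte chains ITGB2 and ITGAL at 0.02/0 and 0.0033/0. Of Notch and Wnt receptors 12 of 19 were expressed, with LRP5 at log2 levels of 3.89 and 3.60, NOTCH1 at 3.96 and 3.40, FZD1 at 3.46 and 3.60, FZD2 at 2.77 and 2.46 and FZD7 at 2.45 and 2.44, and LGR5 at 0 and 0. Of receptors of TGF-beta and BMP 5 of 14 were expressed, namely TGFBR2 at log2 levels of 2.38 and 3.18, ACVR1B at 2.50 and 2.67, BMPR1A at 1.53 and 2.16, TGFBR1 at 1.58 and 1.49 and BMPR2 at 1.19 and 1.48. None of the 9, 13 and 5 tested members of these lists was 2-fold apart.

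Among cytokine, interferon and death receptors 19 of 39 were expressed. TNFRSF12A, the receptor of TWEAK, was highest at log2 levels of 5.05 and 6.19 and was the 1 member 2-fold apart, by a log2 difference of 1.14. LTBR followed at log2 levels of 4.26 and 4.67, TNFRSF21 at 3.83 and 4.13, TNFRSF1A at 3.87 and 3.73 and TNFRSF10B, a TRAIL receptor, at 2.68 and 2.96. FAS was at log2 levels of 0.02 and 0.22. The interferon receptor chains IFNGR2, IFNGR1, IFNAR1 and IFNAR2 were expressed at log2 levels of 2.68/2.53, 1.21/1.77, 1.97/1.64 and 1.06/1.61.

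Nuclear hormone receptors were expressed in 18 of 47 cases. ESRRA had log2 levels of 3.80 and 3.99, NR1H2 3.43 and 3.62, the retinoid receptors RXRA 3.25 and 3.55 and RARG 2.97 and 3.49, and NR2F6 3.37 and 3.27. The steroid receptors ESR1 and PGR had log2 levels of 0.001/0 and 0/0, while the glucocorticoid receptor NR3C1 had 1.46 and 1.84. NR1D1, a repressor of the circadian clock, was the 1 member 2-fold apart, at log2 levels of 1.71 and 2.77 and a log2 difference of 1.07. With a median-ratio scaling that difference went to 0.99, under the 2-fold limit.

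Of 21 genes of MHC class I, its peptide loading and checkpoint ligands 11 were expressed. CD276, an immune checkpoint ligand of the B7 family, was highest at log2 levels of 5.03 and 4.82. The classical heavy chains HLA-C and HLA-B were unequal, at log2 levels of 2.78/2.99 and 0.95/1.28, and their partner B2M was at 3.25 and 3.47. These chains are polymorphic and alike in sequence, so levels depend on how reads were assigned. CD274, the ligand of PD-1, was at log2 levels of 0.38 and 0.19. None of the 12 tested members was 2-fold apart.

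Targets of NRF2, the factor of the oxidative stress response, and glutathione genes were expressed in 26 of 27 cases, and several were among the most abundant transcripts. Besides the ferritins and PRDX1, the reductases AKR1B10 and AKR1C2 had log2 levels of 6.93/6.99 and 6.86/6.38, the pentose phosphate enzymes TKT and PGD 6.58/6.97 and 6.67/6.26, and TXNRD1 6.14 and 6.14. The glutathione peroxidase GPX2 had log2 levels of 5.93 and 5.22 and NQO1 5.69 and 4.87. The AKR1C genes share long stretches of sequence, so single members are uncertain. FTH1 and FTL were 2-fold higher in shTP63, by log2 differences of 1.99 and 1.63, and TXN (thioredoxin) was lower, at log2 levels of 7.24 and 6.24. The list's median log2 difference was -0.14, so the ferritins did not stand for its other members.

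Proliferation genes were expressed in 26 of 26 cases. CDC20, which activates the anaphase-promoting complex, had log2 levels of 6.54 and 6.28, the replicative helicase subunits MCM7 and MCM3 6.04/6.34 and 6.37/5.97, the sliding clamp PCNA 5.79 and 6.49 and the mitotic kinases AURKB and PLK1 4.97/4.70 and 4.93/4.41. MKI67, the proliferation marker, and KIF20A, a mitotic kinesin, were 2-fold lower in shTP63, at log2 levels of 5.10/3.81 and 3.70/2.22 and differences of -1.29 and -1.48. The induced shTP63 libraries were 1.80 and 1.60 apart on the log2 scale for these genes, which is more than the difference between the uninduced lines. Both genes were nevertheless apart the same way by the day 4 rule given below, with log2 differences of -1.86 and -1.08. The median log2 difference of the list was -0.26 at day 0 and -0.87 at day 4, where line and hairpin cannot be told apart. Of G1 regulators 17 of 21 were expressed. CCND1 (cyclin D1) was at log2 levels of 5.34 and 6.43, its kinases CDK4 and CDK6 at 5.47/5.79 and 2.90/3.18, and E2F1 at 4.12 and 3.79. CCND1 was the 1 of 16 tested members 2-fold apart, by a log2 difference of 1.08. The kinase inhibitors CDKN2A and CDKN2B were listed at 0 in both libraries, whereas CDKN1A had log2 levels of 3.32 and 4.24 and CDKN1B 3.32 and 3.62.

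Glycolysis genes were expressed in 19 of 21 cases, with the glucose transporter SLC2A1 at log2 levels of 7.97 and 7.24, TPI1 at 6.82 and 7.29 and ALDOA at 6.62 and 7.17 below GAPDH, PKM2 and ENO1. Another glucose transporter, SLC2A3, was 2-fold lower in shTP63, at log2 levels of 3.66 and 2.25, although the induced shSOX2 libraries differed by 2.57 for it. Cholesterol and lipid synthesis genes were expressed in 21 of 24 cases, among them EBP at log2 levels of 5.70 and 4.73, SCD at 5.38 and 5.11, FASN at 5.05 and 4.67 and DHCR7 at 4.95 and 3.30. DHCR7, of the last step of cholesterol synthesis, was 2-fold lower in shTP63, by a log2 difference of -1.65, and the induced shSOX2 libraries were 1.72 apart for it. The median log2 difference of the list was -0.27, with none of 23 tested members 2-fold higher.

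Genes of the type I interferon response were mostly low, 7 of 32 being expressed. IFITM3 had log2 levels of 5.03 and 5.52, BST2 4.94 and 4.60, IFITM1 2.16 and 3.47 and STAT2 2.56 and 1.58, while the inducible sensors and effectors IFIT1, MX1 and DDX58 had 0.06/0.31, 0.28/0.54 and 0.02/0. IFITM1 was 2-fold higher in shTP63, by 1.31 on the log2 scale, with reads that close IFITM copies may share. Of 34 inflammatory cytokine and acute phase genes 7 were expressed. The chemokine CXCL1 had log2 levels of 3.93 and 5.30, the NF-kB inhibitor NFKBIA 3.62 and 4.41 and IL18 4.15 and 3.96, while IL6, IL8 and TNF were at 0/0, 0.17/0.42 and 0/0. SAA1, an acute phase protein, and CXCL1 were 2-fold higher in shTP63, by log2 differences of 2.98 and 1.37, and for CXCL1 the induced shSOX2 libraries were 1.60 apart. The median log2 difference of the 11 tested members was 0.77, and the lowest was -0.19.

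Proteases and their inhibitors were expressed in 17 of 31 cases, led by the lysosomal proteases CTSD at log2 levels of 6.49 and 6.71 and CTSL2 (cathepsin V, a protease of skin, cornea and thymus) at 7.15 and 5.00, with CTSC at 4.79 and 4.12, SPINT1 at 4.53 and 3.94, TIMP1 at 4.04 and 4.46 and CTSB at 4.01 and 4.28. Members 2-fold higher in shTP63 were CTSH, TIMP3, TIMP2 and KLK8, by log2 differences of 1.79, 1.33, 1.12 and 1.01, and CTSL2 was lower by -2.15. KLK8 went under the 2-fold limit with median-ratio scaling, to 0.94, and its induced shSOX2 libraries were 1.06 apart. The matrix proteases MMP1, MMP3 and MMP9 had log2 levels of 0.13/0.58, 0/0 and 0.01/0. The urokinase gene PLAU was listed at 0 in both libraries although its receptor PLAUR had log2 levels of 2.68 and 2.64.

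Markers of other lineages were checked for cells or programmes that a squamous line should lack. Of 28 leukocyte markers 0 were expressed in both libraries and 15 were listed at 0 in both, and their summed RPKM was 2.67 in the shSOX2 and 2.16 in the shTP63 library. PTPRC, the pan-leukocyte marker, had log2 levels of 0.00043 and 0, and the highest member was CD74 at 0.89 and 0.78. None of 13 endothelial, 18 muscle, 13 lung and thyroid, 20 liver and pancreas or 8 melanocyte markers was expressed in both. Of the liver and pancreas markers 17 were listed at 0 in both libraries, and albumin (ALB) was among the low ones at log2 levels of 0 and 0. TNNI2, a troponin of fast muscle, was the 1 muscle marker to reach an RPKM of 1 in a library, at log2 levels of 1.01 and 0.49.

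Some members of other lineage lists were expressed. EPCAM, an adhesion protein of simple epithelia that many carcinomas make, had log2 levels of 5.43 and 4.45, and with GATA6 at 1.06 and 1.20 it made up the 2 of 28 columnar, intestinal and gastric markers expressed. The intestinal factors CDX1 and CDX2 were at log2 levels of 0/0 and 0/0, and HNF4A at 0.08 and 0.16. UCHL1, a neuronal ubiquitin hydrolase, was the highest marker of any other lineage, at log2 levels of 7.27 and 6.75, or RPKMs of 153 and 106. With ENO2 at log2 levels of 4.07 and 3.55, MAP2 at 1.24 and 1.22 and SYP at 1.10 and 1.25 it made 4 of 22 neural and neuroendocrine markers, while the lineage factor NEUROD1 was at 0 and 0. PRAME, an antigen of testis and tumours, was the 1 of 28 germ cell and pluripotency markers expressed, at log2 levels of 3.11 and 2.71, and the MAGEA4 antigen was at 0 and 0.

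Of 25 fibroblast and mesenchymal markers 5 were expressed, COL3A1 at log2 levels of 3.24 and 2.13, SNAI2 at 2.08 and 3.20, CDH2 (N-cadherin) at 2.98 and 2.44, CDH11 at 2.00 and 1.47 and COL1A1 at 1.49 and 1.54. VIM (vimentin) was under an RPKM of 1, at log2 levels of 0.28 and 0.54, and COL1A2, the partner chain of COL1A1, was at 0 and 0, with ZEB1 at 0.64 and 0.91 and TWIST1 at 0.0041 and 0. COL3A1 was 2-fold lower and SNAI2, which basal keratinocytes also make, 2-fold higher in shTP63, by log2 differences of -1.12 and 1.12. For COL3A1 the induced shSOX2 libraries were 2.50 apart, and for SNAI2 the induced shTP63 libraries 1.16.

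Among all 353 distinct list members that were tested 34 (9.63%) were 2-fold apart between the uninduced libraries, 20 higher and 14 lower in shTP63. This stands beside 4.62% of all tested genes and 2.7% of the 8891 other protein-coding genes described below. The lists were chosen with earlier results of these data known, so the higher share is a description and no test. Over other protein-coding genes the share differed with level, from 1.82% of 1867 genes at a mean of 1 to 2 RPKM to 6.95% of 187 genes at 64 RPKM or more.

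Some gene classes had shares far above the 4.62% of all tested genes. All 8 tested genes of the mitochondrial genome were lower in shTP63, 45 of 54 replication-dependent histones were higher and 2 lower, 11 of 84 cytosolic ribosomal protein genes were lower and 0 higher, and 24 of 69 small structural RNAs were higher and 14 lower. Copies of the 5S RNA gene, which can share reads, are counted singly among these 24. Of the 8891 other protein-coding genes 240 (2.7%) were 2-fold apart, 116 higher and 124 lower. In the same class 396 genes (4.45%) were 2-fold apart between the induced shSOX2 libraries and 423 (4.76%) between the induced shTP63 libraries. The difference between these shares was not tested.

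**Figure D3:**
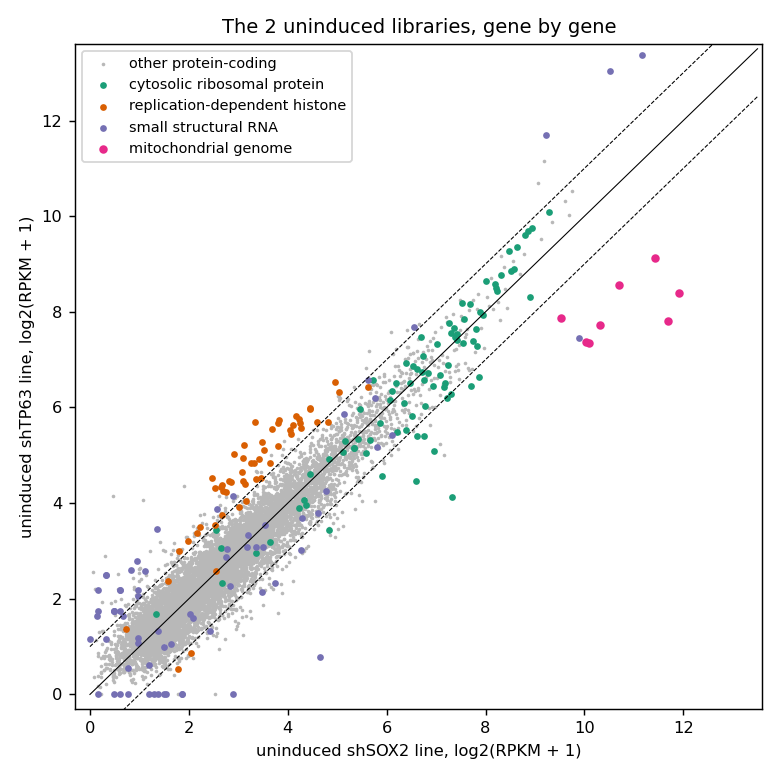
Log2(RPKM + 1) of each tested gene in the uninduced shSOX2 library (horizontal) and the uninduced shTP63 library (vertical), coloured by class, with a solid line of equality and dashed lines at 2-fold. The mitochondrial genes lie below the lower dashed line and 45 of 54 histones above the upper one, while 240 of 8891 other protein-coding genes lie outside.

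The mitochondrial genome encodes subunits of the respiratory chain, and most of its mRNAs carry short poly(A) tails. Their log2 differences ran from -3.88 to -1.65 with a median of -2.62. MT-ND1, a subunit of complex I, had log2 levels of 11.69 and 7.81, or RPKMs of 3293 and 223, and MT-CO1, of cytochrome c oxidase, had log2 levels of 11.91 and 8.40, or RPKMs of 3850.0 and 337. MT-CYB of complex III had log2 levels of 10.09 and 7.35 and MT-CO2 10.31 and 7.73. The 8 genes held 9.43% of the summed RPKM of the uninduced shSOX2 library and 1.36% of that of the uninduced shTP63 library. Rows of mitochondrial origin under other names, if any, are not in these shares. In this scaled table the shares also follow from the ranks of the genes. At day 4 each of them was again lower in both shTP63 libraries than in either shSOX2 library, with a median log2 difference of -2.32. For MT-ND1 the day 4 log2 levels were 11.01 and 11.16 in the shSOX2 line and 9.52 and 8.51 in the shTP63 line, so the groups did not overlap. All 8 stayed 2-fold lower under each other pseudocount and scaling tried. No step that keeps the strand of the RNA is named in the labels, so MT-ND6, which is encoded on the other strand, may hold reads from transcripts that run opposite to it.

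Replication-dependent histones package newly made DNA, and their mRNAs end in a stem-loop in place of a poly(A) tail. In shTP63 the higher ones were 4 of 4 tested linker histones H1, 11 of 13 H2A, 15 of 18 H2B, 8 of 9 H3 and 7 of 10 H4 genes. The median log2 difference was 1.49, and the number higher was 48 with a pseudocount of 0.1, 42 with a median-ratio scaling and 34 with a pseudocount of 5. HIST1H2AJ had log2 levels of 3.33 and 5.70, or RPKMs of 9.07 and 51.0, HIST1H2AI log2 levels of 2.92 and 5.03 and HIST1H3F 3.12 and 5.21. HIST2H2BC and HIST2H2BD, which RefSeq lists as pseudogenes, were the 2 lower ones, at log2 levels of 1.78/0.53 and 2.04/0.86. Histone copies of a family are nearly identical in their coding sequence, so single copies are uncertain. The class held 0.360% of the summed RPKM of the uninduced shSOX2 library and 1.03% of that of the uninduced shTP63 library. By contrast with the mitochondrial genes, the median log2 difference between the lines at day 4 was 0.13 and HIST1H2BC was the 1 histone that remained apart by the day 4 rule given below. For HIST1H2AJ the day 4 log2 levels were 2.39 and 3.30 with shSOX2 and 3.27 and 2.88 with shTP63, all of them below the 5.70 of the uninduced shTP63 library. That library was thus the high one among the 6.

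Promoters of such histones are known for a CCAAT box and a TATA box close to the start site, and the 150 bases before the start of the 3 histones with the widest difference are shown because these genes were higher together. They are from RefSeq on GRCh38.p14, 5′ to 3′ on the strand of the gene, and capitals mark CCAAT and TATAAA or their reverse complements ATTGG and TTTATA. HIST1H2AJ (now H2AC14) lies at chr6:27814778-27814927 on the minus strand, HIST1H2AI (H2AC13) at chr6:27808023-27808172 on the plus strand and HIST1H3F (H3C7) at chr6:26250636-26250785 on the minus strand.
HIST1H2AJ: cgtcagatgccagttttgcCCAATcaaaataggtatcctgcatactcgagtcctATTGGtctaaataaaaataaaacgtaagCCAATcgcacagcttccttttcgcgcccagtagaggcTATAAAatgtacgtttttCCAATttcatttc
HIST1H2AI: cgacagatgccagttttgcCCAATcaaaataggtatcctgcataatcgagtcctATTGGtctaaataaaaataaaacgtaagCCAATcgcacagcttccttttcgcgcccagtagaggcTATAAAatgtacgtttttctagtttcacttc
HIST1H3F: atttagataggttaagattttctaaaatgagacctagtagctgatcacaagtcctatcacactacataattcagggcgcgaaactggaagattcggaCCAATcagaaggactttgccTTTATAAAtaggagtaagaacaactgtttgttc
In HIST1H3F the TATAAA overlaps a TTTATA. Of the 54 tested histones 48 could be matched to such a window, and 40 of these (83.3%) held CCAAT on either strand, beside 24.4% of all 27305 windows of that length. TATAAA on either strand was in 25 (52.1%), beside 7.05% of all windows. The match describes the letters in these windows and was not related to the difference between the libraries.

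Small structural RNAs, which are not polyadenylated as a rule, differed in both directions. Precursor rows of microRNAs were counted in the same class, such as MIR1282 at log2 levels of 6.55 and 7.68, so its counts and shares are not of structural RNAs alone. RN7SK, the RNA that holds back the elongation factor P-TEFb, had log2 levels of 11.16 and 13.36, RN7SL1 of the signal recognition particle 10.52 and 13.04 and RMRP, the RNA of RNase MRP, 9.21 and 11.69. These 3 were higher in shTP63 while SNORD3A, the U3 nucleolar RNA, was lower, at log2 levels of 9.88 and 7.46. With a pseudocount of 5 the class held 5 higher and 3 lower genes in place of 24 and 14. Many of the higher ones were copies of the 5S RNA gene, which can share reads, namely RN5S2 to RN5S8, RN5S10 to RN5S13 and RN5S16. In the uninduced libraries RN5S4, RN5S6 and RN5S7 had equal values, as had RN5S3 and RN5S12, and RN5S2 and RN5S8. The 24 higher genes are thus not separate observations. The class held 3.56% of the summed RPKM of the uninduced shSOX2 library and 13.9% of that of the uninduced shTP63 library. A log2 level of 13.36 is the highest value of every library in this scaled table, so for RN7SK it gives the top rank and no finer level. The same limit holds for other high rows. A log2 level of 11.16 is rank 6 both for RN7SK in the uninduced shSOX2 library and for FTH1 in the uninduced shTP63 library. Differences of high rows and class shares of summed RPKM thus reflect ranks and not measured amounts. For RN7SK the induced log2 levels were 11.69 and 11.91 with shSOX2 and 13.36 and 13.36 with shTP63, and for SNORD3A they were 10.52/10.03 and 7.83/7.83, so both kept their direction. RMRP, in contrast, was at 10.09/10.31 and 10.69/10.69 on the log2 scale after induction, and its difference of 2.47 at day 0 was 0.48 at day 4.

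Ribosomal protein genes had a median log2 difference of -0.01, and the 11 lower ones were a subset that included RPS27 at log2 levels of 7.33 and 4.14, RPS29 at 6.58 and 4.46 and RPL32 at 6.97 and 5.09. RPS27 had log2 levels of 7.07 and 7.26 with shSOX2 and 7.62 and 6.16 with shTP63 at day 4, so the uninduced shTP63 library was the low one among the 6. For RPS29 the induced shTP63 libraries were 2.86 apart on the log2 scale, more than its difference at day 0. At day 4 0 of 84 ribosomal protein genes were apart by the day 4 rule. Ribosomal protein genes have many processed pseudogenes that can take or give reads. How the mitochondrial, histone, structural RNA and ribosomal protein shares relate to each other and to the fewer rows above 0 in the uninduced shTP63 library was not tested.

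**Figure D4:**
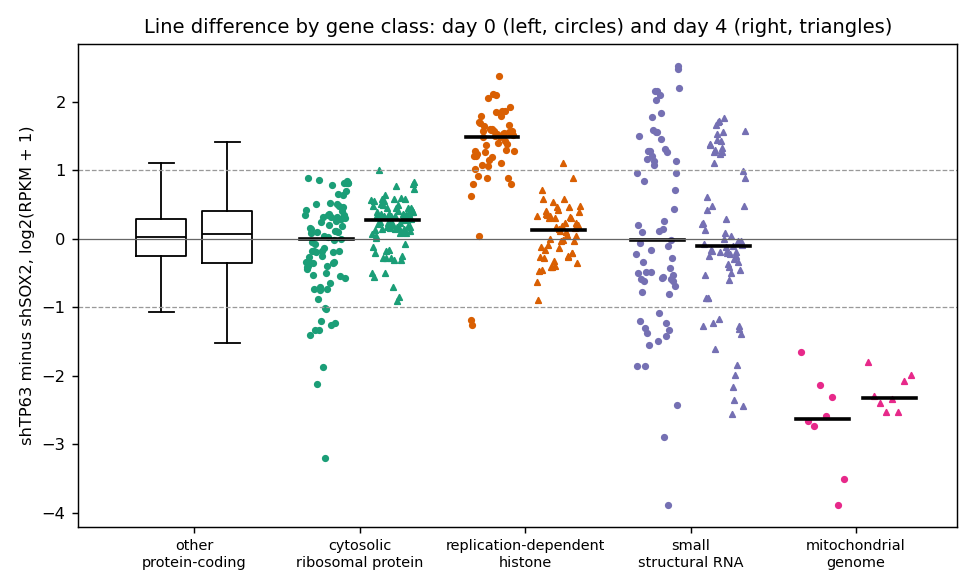
Log2 difference between the lines, shTP63 minus shSOX2, for genes of 5 classes at day 0 (left, circles) and at day 4 as the difference of means (right, triangles). Bars mark class medians and dashed lines mark 2-fold. The boxes of other protein-coding genes show median and quartiles, with whiskers to a low and a high percentile and genes beyond them not drawn. Histones sit at a median of 1.49 at day 0 and 0.13 at day 4, mitochondrial genes at -2.62 and -2.32.

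Among the remaining protein-coding genes above 0 in both libraries, the widest difference upwards in shTP63 was that of a keratin. KRT75, a keratin of the hair follicle companion layer, had log2 levels of 0.46 and 4.16, or RPKMs of 0.378 and 16.8, and a log2 difference of 3.69, beside gaps of 0.0082 and 0.90 between the induced shSOX2 and the induced shTP63 libraries. SAA1 had log2 levels of 1.07 and 4.06, the chemokine CXCL14 0.05 and 2.56 and EDN2, a vasoconstrictor peptide, 0.11 and 2.20. ANKRD1, a muscle and stress-responsive ankyrin protein that YAP is known to activate, had log2 levels of 1.90 and 4.36, but its 2 induced shSOX2 libraries were 2.88 apart on the log2 scale. CLDN1, a tight junction claudin, had log2 levels of 0.57 and 2.52, and AC008687.1, known here by its clone name only, 0.31 and 2.90. Because CXCL14, EDN2, AC008687.1, KRT75 and CLDN1 were under an RPKM of 1 in the shSOX2 library, the log2 difference on a scale with 1 added understates their ratio. Such low values are uncertain, and so are the ratios. With a pseudocount of 5 CXCL14, EDN2 and CLDN1 went under 2-fold, to 0.97, 0.76 and 0.83, while KRT75 and AC008687.1 stayed above it. Differences of SAA1 and CLDN1, 2.98 and 1.96, were little above their induced shSOX2 gaps of 2.75 and 1.92. For CXCL14 the induced shTP63 gap was 2.28.

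Further genes with wide differences, chosen after their values were seen, were the secreted binder IGFBP3 at log2 levels of 5.65 and 7.19, the stress proteins NUPR1 at 2.22 and 3.75 and NDRG1 at 2.62 and 4.15, the lectin LGALS3 at 6.09 and 7.59, the ETS factor ETS1 at 1.48 and 3.02, the dopamine receptor DRD2 at 1.42 and 3.19 and CASP1, the inflammatory caspase, at 0.42 and 1.90. All of these were higher in shTP63, by log2 differences from 1.48 for CASP1 to 1.77 for DRD2.

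Among protein-coding genes above 0 in both libraries, the widest differences downwards outside the classes above were those of CTSL2, at log2 levels of 7.15 and 5.00, SLX1A, a subunit of a structure-specific nuclease, at 3.79 and 1.71, NFKBIZ, a nuclear regulator of NF-kB, at 3.10 and 1.23, SLPI, and FBN2, a microfibril protein, at 3.88 and 2.13. SLX1A has a near-identical copy, so its value is uncertain. Others with wide differences, chosen after their values were seen, were the securin PTTG1 at log2 levels of 4.11 and 2.38, RPN2 of the oligosaccharyl transferase at 5.76 and 4.04, the hyaluronan synthase HAS3 at 4.86 and 3.34, the porphyrin transporter ABCB6 at 5.02 and 3.45, the cytochrome P450 CYP2S1 at 3.86 and 2.32 and the splicing kinase CLK2 at 2.95 and 1.37. Their log2 differences lay between -1.73 and -1.53. For PTTG1 the induced shTP63 libraries were at log2 levels of 3.61 and 1.45, further apart than its day 0 difference.

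In a separate group, 56 tested genes were listed at 0 in the uninduced shTP63 library only and 1 in the uninduced shSOX2 library only. The highest protein-coding ones were PLA2G4B at a log2 level of 2.53 in shSOX2, KBTBD4 at 1.78, SMAGP at 1.39, ZNF467 at 0.53 and GSTA1 at 0.23, all listed at 0 in shTP63. At day 4 the shTP63 line had log2 levels of 1.40 and 1.78 for KBTBD4 and 3.78 and 3.35 for ZNF467, so these genes were above 0 in the induced libraries of that line. ZNF467 was also higher in the induced shSOX2 libraries than before induction, at log2 levels of 1.67 and 1.85. The uninduced shTP63 library also had the fewest rows above 0, and the part of that in these values was not tested.

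The induced libraries were then used to ask which of the 487 genes were apart again, with the limit that each line carried its own active hairpin at day 4, so that line and hairpin cannot be told apart there. A gene was apart at day 4 when both shTP63 libraries lay above, or both below, both shSOX2 libraries and the means differed at least 2-fold, which held for 911 of 10536 tested genes (8.65%), 332 higher (3.15%) and 579 lower (5.5%) in shTP63. Of the 209 genes higher at day 0, 39 (18.7%) were apart the same way at day 4 and 9 (4.31%) the opposite way. Of the 278 lower at day 0, 100 (36%) were apart the same way and 2 (0.719%) the opposite way. Among other protein-coding genes the same-way shares were 21.6% of 116 higher and 35.5% of 124 lower genes. A majority of the differences between the uninduced libraries was thus not seen again by this rule.

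The protein-coding genes above 0 in both uninduced libraries and higher in shTP63 on both days were led by CXCL14, with day 4 log2 levels of 0.41 and 0.30 with shSOX2 and 1.80 and 4.08 with shTP63. FTH1 and FTL followed, with day 4 log2 levels of 9.52/9.69 against 11.01/11.91 and 9.75/9.61 against 11.69/11.69. For DLX3 the day 4 log2 levels were 2.75/1.66 against 3.89/4.78, and for KRT14 0.81/0.66 against 1.46/2.70, with no overlap in either gene. KRT80, LGALS3 and ALDH2, chosen after their values were seen, were also apart, with day 4 log2 differences of 1.59, 1.53 and 1.06. For LGALS3 the induced shTP63 libraries were far apart, at log2 levels of 5.26 and 7.46. The lower of them was close to the shSOX2 levels of 4.62 and 5.05. KRT75 was not, as its day 4 log2 levels were 0.19 and 0.20 with shSOX2 and 0.15 and 1.04 with shTP63, and the uninduced shTP63 library at 4.16 stood apart from the other 5.

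Of such protein-coding genes lower on both days the first 5 were mitochondrial, MT-ND1, MT-CO1, MT-CYB, MT-ND2 and MT-CO2. Outside that genome CTSL2 had day 4 log2 levels of 4.56 and 4.99 with shSOX2 and 3.11 and 3.45 with shTP63, NFKBIZ 2.96/2.56 and 0.83/0.98, and COL7A1, the anchoring fibril collagen, 4.88/5.04 and 2.72/2.87. CYP2S1 had a log2 difference of -2.29 at day 4. These 4 were named after their values were seen, and in none of them did the groups overlap. PLA2G4B, at 0 in the uninduced shTP63 library, was also apart, at day 4 log2 levels of 1.90/2.05 and 1.22/0.61.

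**Figure D5:**
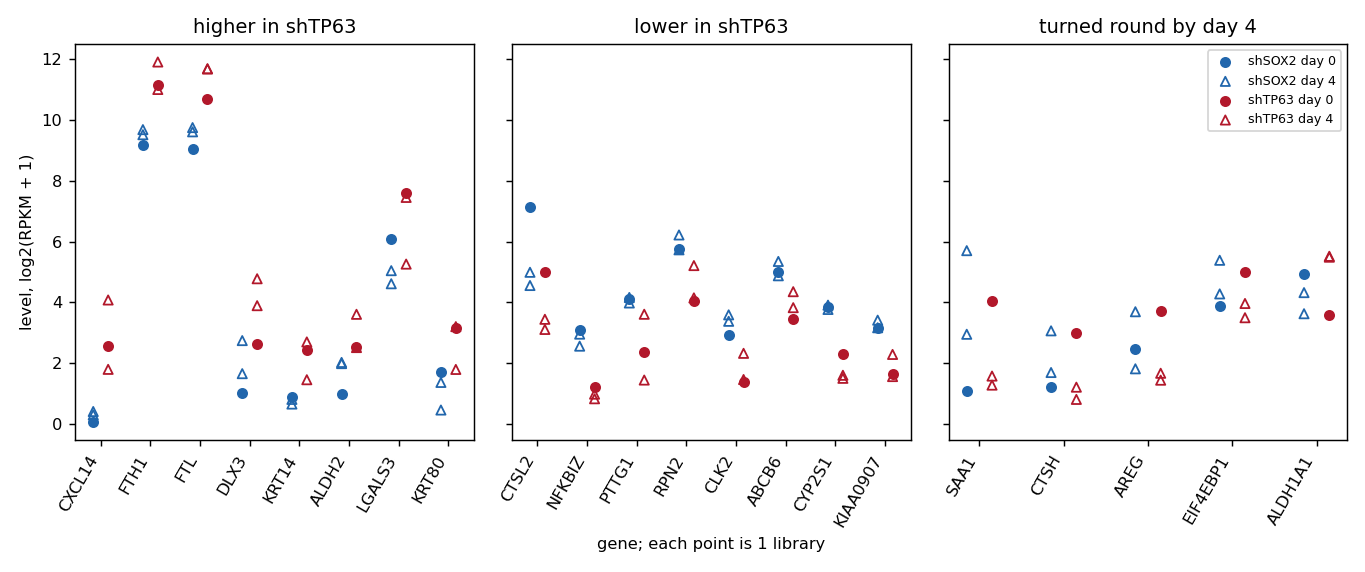
Log2(RPKM + 1) in each of the 6 libraries for genes that stayed higher (left), stayed lower (middle) or were opposite (right) in the shTP63 line at day 4, outside the mitochondrial genome, with filled circles for day 0, open triangles for day 4, blue for shSOX2 and red for shTP63. FTL lies at 9.06 and 10.69 at day 0 and stays apart at day 4, while SAA1 is higher in shTP63 at day 0, at 4.06 against 1.07, and lower at day 4.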

How the data were processed

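RNA with a poly(A) tail was selected on beads and fragmented, random-primed cDNA was ligated to adapters with a kit meant for DNA, and the libraries were read on a HiSeq instrument, per the labels' protocols. The submitters' processing notes name hg19 as the genome build. The tools for alignment and counting and the gene annotation were not given in the sources used here. Deposited by the authors was 1 table of 48644 gene rows and 6 columns, whose name gives RPKM. The deposited values are log2(RPKM + 1), as read from the values, so they were used directly, with no further log taken. With base 2, RPKM times the longest transcript length in kilobases gave sums of 0.362 to 0.372 of the possible total per library, while base e gave 2.44 to 3.05 times that total. Over the 1000 highest ranks, values of the same rank differed by at most 0.0412 between libraries, so the table was treated as quantile-normalized by the authors. Such a table keeps no depth.

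Linear RPKM was 2 to the power of the value, minus 1. Tested genes (10536) had a mean RPKM over all 6 libraries of 1 or more, and at least 2-fold apart means a log2 difference of at least 1 in size. Code was run in Python 3.11.15 with pandas 2.3.3 and numpy 2.4.6, and the counting rules were run on simulated data. Those data held 4-fold differences and small added noise in genes with a mean RPKM of at least 5. They do not show how often the 2-fold rule errs at the limits used. Names were matched to GENCODE 29 (26796 rows) and RefSeq (2542), and 19306 rows had no match, of which 1004 were tested. GENCODE and RefSeq served for classes, names and lengths, and RefSeq for promoter letters with its own coordinates. Their build differs from hg19, so no coordinates were joined to the table. The 32 gene lists, the members and the rules were chosen with earlier results of these data known. Genes named are SOX2 and TP63, the 20 highest protein-coding genes, the 5 highest expressed members of each list and any 2-fold apart, the 15 largest differences in each direction, the 5 largest in each direction that were apart again at day 4, and 5 genes at 0 in 1 uninduced library. Some genes that the rule names are not reported here. Names outside the rule are low members given for contrast or are said to be chosen after their values were seen. The comparison with gaps between the day 4 libraries of 1 targeted gene was added after the data were seen.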

Additional observations from a re-analysis of the deposited data

Results flagged for a closer look

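For 7 protein-coding genes outside the classes named above that were 2-fold apart at day 0, both induced shTP63 libraries lay on the opposite side of both induced shSOX2 libraries with means at least 2-fold apart. The difference between the days was not tested, and each value at day 0 is from 1 library per line. SAA1, the acute phase protein, had a log2 difference of 2.98 at day 0 and -2.90 at day 4, with log2 levels of 1.07 and 4.06 before induction, 2.95 and 5.70 in the induced shSOX2 libraries and 1.58 and 1.28 in the induced shTP63 libraries. The read-through gene SAA2-SAA4, which shares reads with its neighbours, had a log2 difference of 1.70 at day 0 and -1.92 at day 4. AREG, the EGFR ligand, had 1.23 and then -1.20, and its duplicate AREGB 1.45 and then -1.23, so these are not separate observations. Induced log2 levels of AREG were 1.82 and 3.70 with shSOX2 and 1.67 and 1.44 with shTP63. Those of AREGB were 1.51/3.46 and 1.32/1.18. In both rows the day 4 difference rests largely on 1 shSOX2 library.

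CTSH, a lysosomal protease, had a log2 difference of 1.79 at day 0 and -1.37 at day 4, with induced log2 levels of 1.70 and 3.07 for shSOX2 and 0.81 and 1.21 for shTP63. EIF4EBP1, a repressor of cap-dependent translation, had 1.13 and then -1.10. ALDH1A1, a retinaldehyde dehydrogenase, was the 1 gene of the 7 that was lower in shTP63 at day 0, with a log2 difference of -1.33, and higher at day 4, with 1.53. Its log2 levels were 4.92 and 3.59 before induction and 4.32/3.63 against 5.52/5.49 after it.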

How the results depend on the processing

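The count of 487 genes 2-fold apart moved with the added constant and the limits: it was 1058 with a pseudocount of 0.1, 128 with a pseudocount of 5, 253 with a mean RPKM of at least 5, 304 with protein-coding names only, 2023 at 1.5-fold and 50 at 4-fold. The count of 139 genes apart the same way at day 4 was 350, 33, 82 and 78 under the first 4 of these. Both stayed within 1.5 times without a filter, with a filter on the uninduced libraries, with median-ratio scaling, with genes above 0 in both uninduced libraries and, chosen after seeing the data, without the mitochondrial, histone, ribosomal protein and small structural RNA genes. Of the 487, 42.9% were higher in shTP63, against 53% with protein-coding names only, 50.8% with a pseudocount of 5 and 34.5% with median-ratio scaling. Leaving out each induced library gave 124 to 171 genes in place of 139. With an RPKM of at least 5 in both libraries, 4090 genes in place of 9559 counted as expressed. Of 61 named differences none was reversed, and 26 went under 2-fold with a pseudocount of 5. No paired analysis was possible because each uninduced line has 1 library and the results come from no test. Without counts, depth limits cannot be given, and low values, above all in the uninduced shTP63 library, are the least certain.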

Other observations

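Noncoding and unnamed rows were apart more to the lower side of shTP63. Of 197 tested long noncoding and other noncoding genes 3 were 2-fold higher and 19 lower, of 229 pseudogenes 3 higher and 13 lower, and of 1004 rows without a matched name 18 higher and 87 lower, beside 1.98% and 2.64% of all tested genes. Rows without a matched name held 16.4% of the summed RPKM of the uninduced shSOX2 library and 8.07% of that of the uninduced shTP63 library. Highest among them were J01415.24, at RPKMs of 10548 and 2056, and J01415.4, at 8396 and 3850. These were ranks 1 and 2 of the uninduced shSOX2 library, so both shares rest in large part on them. Their log2 differences were -2.36 and -1.12. The mitochondrial class was formed from names that start with MT-, so neither row was counted in it or in its share. What these rows encode, and whether they belong to the mitochondrial genome, was not examined. The precursor row of MIR205, a microRNA of squamous and basal epithelium, was above an RPKM of 1 in both libraries, at log2 levels of 2.83 and 2.27.

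By the longest annotated transcript, protein-coding genes outside the mitochondrial and histone classes that were under 1000 bases had a median log2 difference of 0.24 over 226 genes, and those of 2000 to 4000 bases 0.01 over 3474 genes. The 226 short genes held 16 that were 2-fold higher in shTP63 and 8 that were lower (3.54%). Beside them, the 3474 genes held 43 higher and 56 lower (1.61%). Cytosolic ribosomal protein genes were part of the genes grouped by length, so these counts are not separate from that class.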
